A study of Mus musculus with 6 samples.

Results

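The genes described here are 33 of the 55401 gene models counted in the series, and they encode the vacuolar proton pump (V-ATPase) and the proteins that sense nutrients at the lysosome. They were chosen by function, by gene symbol, with results of this same comparison already in view, so their counts and fold changes are a description and support nothing about the group as a whole. The genes were taken in 4 parts: 10 for the membrane sector V0 and its accessory subunits, 8 for the cytosolic sector V1, 12 for Ragulator, the Rag GTPases and the FLCN complex, and 3 for BORC. All 33 symbols matched a single gene model. After the filter on low counts 31 were tested, and the other 2, Atp6v0d2 and Rragd, had 0 to 2 counts in every library.

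RNA came from RAW264.7, a mouse macrophage line that the labels trace to ascites of a tumour caused by Abelson leukemia virus. Libraries were made from poly(A)-selected RNA of 3 samples titled as control siRNA, with wild-type genotype, and 3 titled as Nop16 siRNA, with the genotype given as Nop16 knockdown. The transfection text, which is the same for all 6 samples, names a Nop16 siRNA at 20 nM with a lipid reagent for 3 days, so what the control libraries were transfected with is not given. Nothing says that replicates were separate cultures, and p-values therefore measure only the spread between these samples. Nop16, the knockdown target and a nucleolar protein of ribosome assembly, stood at 17.7, 18.8 and 20.2 CPM (counts scaled to the TMM-adjusted library size) in control libraries and at 3.94, 4.15 and 4.56 CPM after Nop16 siRNA, which is 22.4% of the control level (log2 fold change -2.16, SE 0.12, edgeR adjusted p = 2.94e-23).

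Library totals ran from 19778237 to 23061922 counts in controls and from 15601477 to 18635089 after Nop16 siRNA, so every control library was the deeper. Of the 8 macrophage markers all were tested, and their summed level was 4378 to 4643 CPM in controls and 6996 to 7389 CPM after Nop16 siRNA. Much of that rise was in Lyz2, at 1140 ± 153 and then 2930 ± 185 CPM (log2 fold change 1.36; SD, n = 3 each). In all 5 were higher, Lyz2 the most, and Fcgr1 was lower, while Adgre1 (0.01) and Spi1 (-0.02) did not pass. Over all genes tested, 23% were called higher and 22.4% lower. Osteoclasts, which RAW264.7 cells can become, carry abundant V-ATPase. The 9 osteoclast markers summed to 573.4 to 603.4 CPM in controls and 474.7 to 505.7 CPM after Nop16 siRNA, mostly from Mmp9. Among them, Acp5 and Calcr had 0 counts in all 6 libraries. Ctsk was detected, at 7.02 ± 0.383 CPM in controls and 8.6 ± 0.588 CPM after Nop16 siRNA (SD, n = 3 each). Of the 5 osteoclast markers tested, Dcstamp was higher, Mmp9, Nfatc1 and Ocstamp were lower, and Ctsk did not pass (log2 fold change 0.29, edgeR adjusted p = 0.0669). Summed markers of T or NK cells, neutrophils, fibroblasts, B cells and epithelium reached at most 5.926, 1.807, 1.635, 0.3258 and 0.0543 CPM in any library. The part that depth and the macrophage markers play in the values below was not tested, other than by thinning the libraries to equal depth, which left 22 members higher and 2 lower, the same numbers as without it.

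The V-ATPase is a rotary pump. Its V1 sector splits ATP in the cytosol and turns a central stalk, which drives the proteolipid ring of V0 past an a subunit and moves protons into the lysosome. In macrophages this acidity activates hydrolases that digest phagocytosed material. The same membrane carries Ragulator, a scaffold anchored in the lipid bilayer that holds Rag GTPase dimers (RagA or RagB with RagC or RagD), and when amino acids are plentiful the loaded Rags bring the kinase complex mTORC1 to the lysosome. FLCN, with FNIP1 or FNIP2, is the GTPase-activating protein for RagC and RagD. BORC recruits the small GTPase ARL8 and through it kinesins, which carry lysosomes outward. Transcription of many lysosomal genes is under TFEB, TFE3 and MITF, which bind CLEAR elements built around the palindrome CACGTG.

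That palindrome was not read when the members were chosen. They were chosen by lysosomal function, though, and many lysosomal genes are under these factors. Its share among the members is therefore a description and not an independent result. RefSeq promoter sequences (GRCm38.p6), from 250 bases before to 50 bases after each annotated start, were matched for 26 of the 33 genes, that is for all but Atp6v0a2, Atp6v0d2, Atp6v1b2, Atp6v1c1, Atp6v1g1, Atp6v1h and Lamtor3. CACGTG, which reads the same on both strands, was found in 9 of their 32 promoters (28.1%), each of a different gene, against 7.15% of all 32851 promoters and 9.98% of the 12049 promoters of genes tested. The longer palindrome TCACGTGA, which contains CACGTG and is the core of the CLEAR element, was found in 3 of the 32 (9.38%), against 0.974% of all promoters and 1.84% of those of genes tested. Median GC content was 58% for the members' promoters and 60.7% for those of genes tested. A match describes letters in a window and is not evidence of binding. The 30 bases around the match are printed for the 3 promoters with TCACGTGA and for 4 more that belong to genes discussed below, on the gene's own strand, with CACGTG in capitals.
Atp6v0d1 (chr8:105566050-105566079, minus strand): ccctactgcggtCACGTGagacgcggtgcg
Atp6v0e (chr17:26676387-26676416, plus strand): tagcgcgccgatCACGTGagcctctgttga
Atp6v1a (chr16:44139373-44139402, minus strand): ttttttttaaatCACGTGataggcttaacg
Atp6v0b (chr4:117887330-117887359, minus strand): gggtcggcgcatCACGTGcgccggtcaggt
Rragc (chr4:123917309-123917338, plus strand): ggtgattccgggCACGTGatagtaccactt
Fnip1 (chr11:54438092-54438121, plus strand): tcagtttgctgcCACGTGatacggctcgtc
Lamtor1 (chr7:101905757-101905786, plus strand): ctgccttcctatCACGTGccgcgggtccgc

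The first base of the palindrome lay 3 bases before the annotated start of Atp6v0d1, 4 bases into the transcript of Atp6v0e and 131 bases before the start of Atp6v1a. The difference in response between members with and without a match was not tested. Of the 9 genes with CACGTG 6 were higher and 1 was lower, at a median of 0.21 on the log2 scale, and of the 16 tested genes whose promoters lack it 11 were higher and 0 lower, at a median of 0.24. Of the 6 tested genes without a promoter sequence 5 were higher and 1, Atp6v1b2, was lower, at a median of 0.30. Among all genes tested, 23% were called higher and 22.4% lower. Lamtor1, the member that fell most, carries a match, and Flcn, the member that rose most, carries none in this window. Both are named for their fold changes, and nothing is read from them. Other forms of the element and sites further away were not sought.

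Most members stood higher after Nop16 siRNA, by small amounts. Of the 31 tested, 22 passed the threshold (edgeR, Benjamini-Hochberg adjusted p below 0.05 over all genes tested) as higher and 2 as lower, where 23% of all 14269 genes tested were called higher and 22.4% lower, or 45.4% in all. On the log2 scale the median change was 0.22 for the tested members and 0 for all genes tested. Members ranged from -0.32 for Lamtor1 to 0.62 for Flcn. For 22 members the 3 Nop16 siRNA libraries all lay above the 3 control libraries and for 3 all below, against 26.3% and 26.2% of all genes tested (52.5% together). Nothing is read from these shares, since the members were taken with this contrast known. The RNA is from bulk cultures, in which a change in the make-up of the cells and a change in RNA per cell cannot be told apart.

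**Figure D1:**
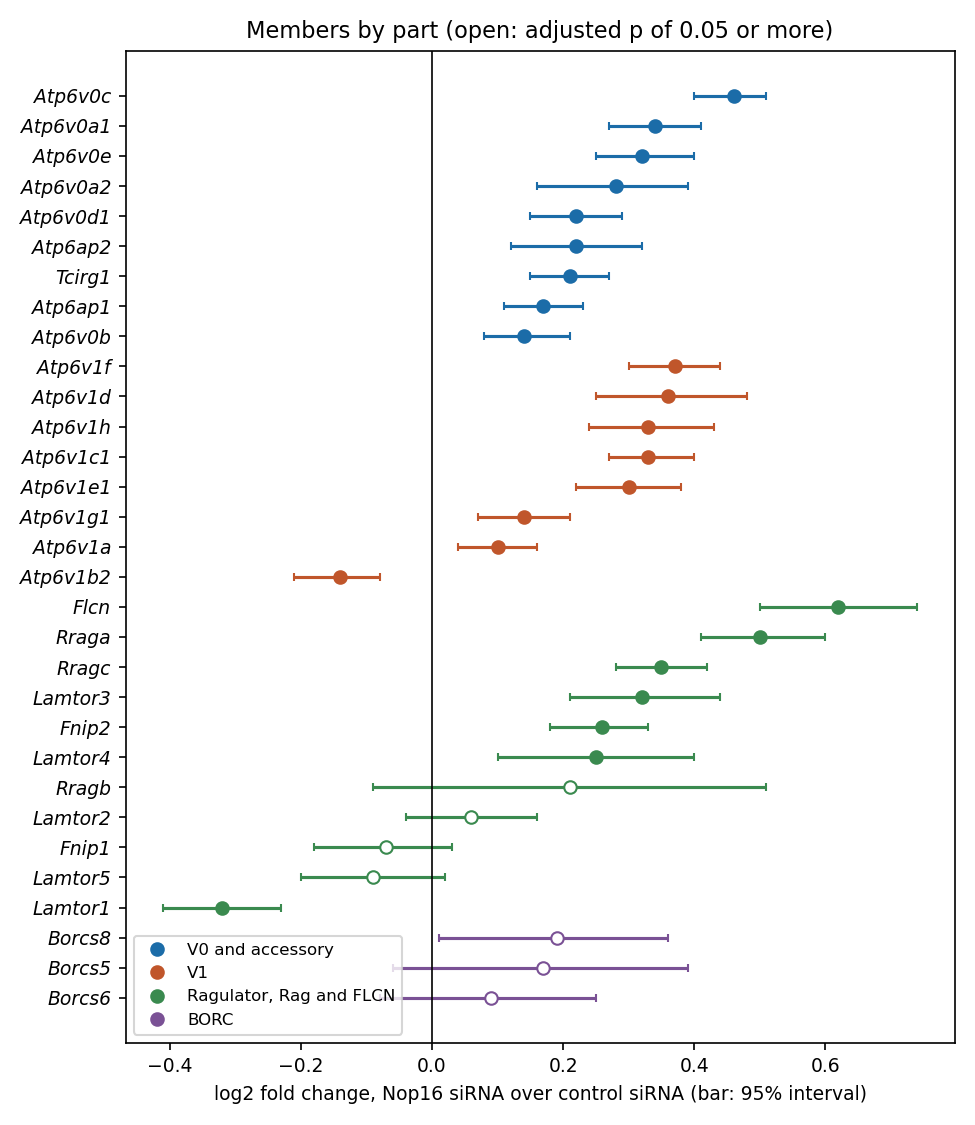
Log2 fold change of each tested member (x axis, Nop16 siRNA over control siRNA, 3 libraries each) with its 95% interval, grouped by part. Filled points passed the adjusted p threshold of 0.05: 9 of 9 in V0, 8 of 8 in V1 with Atp6v1b2 on the lower side, 7 of 11 in the Ragulator, Rag and FLCN part, and none of the 3 BORC genes. Of all genes tested 45.4% passed.

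All 9 tested genes of V0 and its accessory subunits rose, with log2 fold changes from 0.14 to 0.46 and a median of 0.22. Among all genes tested, 23% were called higher. The proteolipid gene Atp6v0c, whose product forms most of the proton-carrying ring, rose most. It was at 573, 559 and 570 CPM in control libraries and at 796, 750 and 789 CPM after Nop16 siRNA, so the lowest Nop16 siRNA library lay far above the highest control (1.37-fold, log2 fold change 0.46, SE 0.0286, adjusted p = 5.06e-21). Atp6v0c (ENSMUSG00000024121) lies on chromosome 17 from 24163866 to 24169702 of GRCm38. Its count is uncertain, because the processed pseudogene Atp6v0c-ps2 is 99.8% identical to it over 465 bases and multi-mapped fragments were counted for both. That pseudogene was listed at 405 CPM in controls and 547 CPM after Nop16 siRNA (log2 fold change 0.43), and how many fragments are shared was not tested. Without Atp6v0c, the other V0 and accessory genes summed to 1351 ± 3.68 CPM in controls and 1575 ± 20.9 CPM after Nop16 siRNA (SD, n = 3 each), a ratio of 1.17 against 1.23 with it.

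The a subunits, which form the proton path beside the ring and direct the pump to different membranes, all rose. Atp6v0a1 was at 132, 137 and 140 CPM in controls and at 171, 174 and 172 CPM after Nop16 siRNA (log2 fold change 0.34, SE 0.036, adjusted p = 5.58e-12). Atp6v0a2, found on Golgi and endosomal membranes, was at 39.4, 41.8 and 41.5 CPM and then at 49.4, 47.4 and 51.6 CPM (0.28, SE 0.0588). The a3 gene Tcirg1, which serves lysosomes and the osteoclast's ruffled border, was at 329, 310 and 329 CPM and then at 377, 370 and 369 CPM (0.21, SE 0.0306). The groups did not overlap for any of these genes. Per kilobase of exon, Tcirg1 supplied 72.3% ± 1.03 of the a subunit signal in controls and 70.6% ± 0.382 after Nop16 siRNA, Atp6v0a1 21.4% ± 0.762 and 22.9% ± 0.339, and Atp6v0a2 6.27% ± 0.277 and 6.43% ± 0.272 (SD, n = 3 each). The order of the 3 genes was thus the same in both groups, with Tcirg1 far ahead.

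Atp6v0e, a small membrane subunit whose start site carries TCACGTGA, was at 147, 154 and 151 CPM in controls and at 193, 194 and 179 CPM after Nop16 siRNA (log2 fold change 0.32, SE 0.0362, adjusted p = 2.28e-11). Atp6v0d1, which couples the ring to the central stalk and also carries TCACGTGA, was at 127, 127 and 123 CPM and then at 149, 149 and 142 CPM (0.22, SE 0.0374, adjusted p = 1.34e-06). Every Nop16 siRNA library was above every control library for both. The osteoclast form of the d subunit, Atp6v0d2, had 2, 1 and 0 counts in control libraries and 0, 2 and 0 after Nop16 siRNA, all under the 3 counts per library (0.13 to 0.192 CPM) taken as the floor, so no difference was detectable at this depth. Such floors cover counting error only. The second proteolipid gene Atp6v0b rose least, from 194 ± 1.28 to 214 ± 8.76 CPM (0.14, SE 0.0341, adjusted p = 0.000375), and its promoter holds CACGTG in 2 places. The accessory subunit genes Atp6ap1 (0.17) and Atp6ap2 (0.22), the latter also known as the prorenin receptor, rose as well. The 95% interval for Atp6v0c, 0.40 to 0.51, did not meet that for Atp6v0b, 0.08 to 0.21. These are the largest and smallest rises of the part, picked by their values, and the count of Atp6v0c is uncertain. Whether the rises differed in size was therefore not tested.

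**Figure D2:**
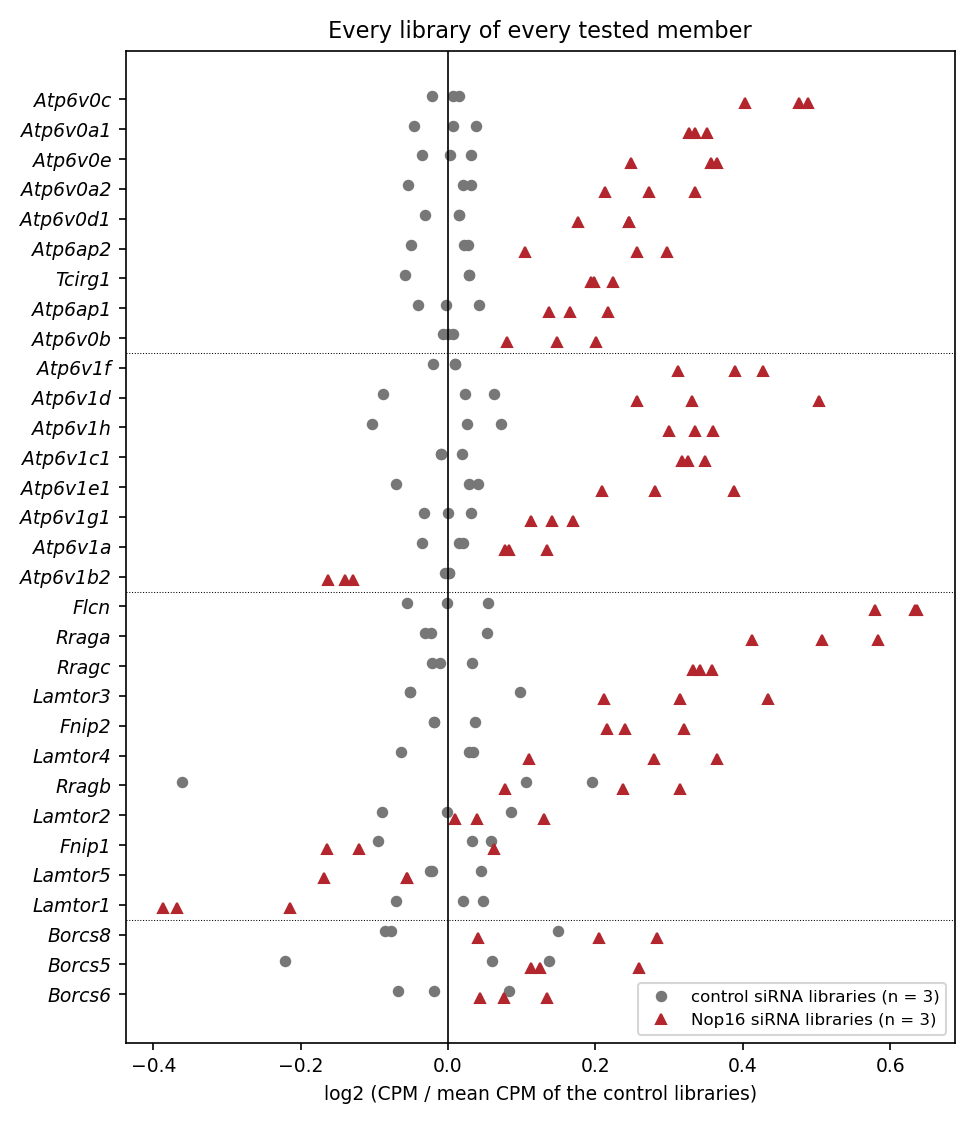
Level of every tested member in each of the 6 libraries, as log2 of its CPM over the mean CPM of the 3 control libraries (x axis), with parts separated by dotted lines. Nop16 siRNA libraries (triangles) lie to the right of all control libraries (circles) for every V0 gene and for every V1 gene other than Atp6v1b2, whereas the groups overlap for all 3 BORC genes. For 52.5% of all genes tested the groups did not overlap.

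In V1 all 8 genes passed the threshold, 7 as higher and 1 as lower, and the median log2 fold change was 0.32. Among all genes tested, 45.4% passed. Of the central stalk genes, Atp6v1f was at 146, 146 and 143 CPM in controls and at 195, 180 and 190 CPM after Nop16 siRNA (1.3-fold, log2 fold change 0.37, SE 0.0359, adjusted p = 1.39e-13). Atp6v1d, whose product is the rotor shaft, was at 43.2, 44.4 and 40 CPM and then at 60.3, 50.8 and 53.5 CPM (0.36, SE 0.0601, adjusted p = 8.49e-07). The groups were apart for both, and Atp6v1d varied more between Nop16 siRNA libraries. Atp6v1c1, the subunit through which V1 is released from and rejoined to V0, was at 149, 152 and 149 CPM and then at 187, 188 and 191 CPM (0.33, SE 0.0346, adjusted p = 2.3e-12), with little spread in either group. Atp6v1h, which restrains free V1, rose from 68.9 ± 4.32 to 86.7 ± 1.8 CPM (0.33, SE 0.048), and the peripheral stalk gene Atp6v1e1 from 118 ± 5 to 144 ± 8.78 CPM (0.30, SE 0.0407). The other peripheral stalk gene, Atp6v1g1, rose less (0.14, SE 0.0366, adjusted p = 0.000942).

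The subunits of the ATP-splitting head did not share those sizes. Atp6v1a, the catalytic A subunit, was at 268, 267 and 258 CPM in controls and at 280, 279 and 290 CPM after Nop16 siRNA (log2 fold change 0.10, SE 0.0316, adjusted p = 0.00822). The groups did not overlap, but the gap was small, and the gene no longer passed when control replicate 3 (edgeR adjusted p = 0.0672) or Nop16 siRNA replicate 3 (0.0764) was left out, at a log2 fold change of 0.08 in both cases. Atp6v1b2 (ENSMUSG00000006273; chromosome 8, 69088646 to 69113711), the B subunit that alternates with A in the head, was at 278, 278 and 277 CPM in controls and at 254, 252 and 248 CPM after Nop16 siRNA (-0.14, SE 0.0313, adjusted p = 9.8e-05). It was the V1 gene that fell, and its 95% interval of -0.21 to -0.08 did not reach that of Atp6v1a, 0.04 to 0.16. Summed over the sector, V1 genes stood at 1202 ± 14.1 CPM in controls and 1347 ± 15 CPM after Nop16 siRNA (SD, n = 3 each).

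The Ragulator, Rag and FLCN part was mixed. Of 11 genes tested, 6 were higher, 1 was lower and 4 did not pass, and the median log2 fold change was 0.25. Among all genes tested, 45.4% passed. The part held both the largest rise and the largest fall among all members. In Ragulator itself, Lamtor1, the lipid-anchored subunit that wraps the others and ties them to the lysosome, was at 96.7, 105 and 103 CPM in controls and at 87.5, 77.7 and 78.7 CPM after Nop16 siRNA. All Nop16 siRNA libraries lay below all controls (0.799-fold, log2 fold change -0.32, SE 0.0462, adjusted p = 2.74e-08). Lamtor1 (ENSMUSG00000030842; chromosome 7, 101905904 to 101926675) has processed pseudogenes that are 98.4% (Gm5510) and 96.5% (Gm13077) identical, at 3.25 and 1.47 CPM in controls, so its count is slightly uncertain. Lamtor3, which pairs with Lamtor2 and also scaffolds MAP kinase signalling, was at 45, 49.9 and 45 CPM and then at 58, 54 and 63 CPM (0.32, SE 0.0581, adjusted p = 4.67e-06). Its pseudogene Gm5900, 99.5% identical, was listed at 3.39 CPM in controls and 4.39 CPM after Nop16 siRNA, so its count is slightly uncertain too. Lamtor4 was at 25.8, 25.9 and 24.2 CPM and then at 32.6, 27.3 and 30.7 CPM (0.25, SE 0.0762, adjusted p = 0.00488), a call that was lost without Nop16 siRNA replicate 1 (0.20, adjusted p = 0.0575). The remaining Ragulator genes did not pass. Lamtor2 stood at 68.7 ± 4.14 and 71.6 ± 3.11 CPM (0.06, 95% interval -0.04 to 0.16), and Lamtor5, which pairs with Lamtor4, stood at 51.8, 51.7 and 54.2 CPM and then at 46.8, 50.6 and 50.6 CPM (-0.09, 95% interval -0.20 to 0.02). The count of Lamtor5 is slightly uncertain as well, since its pseudogene Gm15190, 97.8% identical, was listed at 2.24 CPM in controls.

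The RNA for each Rag pair came mainly from a single gene of the pair, and those genes rose. Protein was not measured. Rraga (ENSMUSG00000070934; chromosome 4, 86575668 to 86577285) was at 63.3, 67.1 and 63.7 CPM in controls and at 97, 86.1 and 92 CPM after Nop16 siRNA (1.42-fold, log2 fold change 0.50, SE 0.0482, adjusted p = 1.35e-13). Rragc was at 130, 134 and 129 CPM and then at 168, 165 and 166 CPM (1.27-fold, 0.35, SE 0.0361, adjusted p = 2.5e-12). The groups were far apart for both genes. Their paralogs contributed little: Rragb was at 4.65, 6.84 and 6.43 CPM and then at 7.04, 7.43 and 6.3 CPM, with overlapping groups (0.21, 95% interval -0.09 to 0.51, adjusted p = 0.267), and Rragd had 1 count in 1 control library and 0 in the other 5. Per kilobase, Rraga made up 93.8% ± 1.03 of the RagA and RagB signal in controls and 94.9% ± 0.601 after Nop16 siRNA (SD, n = 3 each).

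Flcn, which encodes folliculin, showed the largest rise of any member. It was at 34.2, 32.9 and 31.7 CPM in controls and at 49.2, 51.1 and 51.2 CPM after Nop16 siRNA (1.54-fold, log2 fold change 0.62, SE 0.0611, adjusted p = 3.79e-13). Flcn (ENSMUSG00000032633) lies on chromosome 11 from 59791408 to 59810016. Of its partners, Fnip2 was at 102, 106 and 102 CPM and then at 122, 129 and 120 CPM (0.26, SE 0.0402, adjusted p = 2.67e-07), with groups apart. Fnip1 was at 73.1, 74.4 and 66.9 CPM and then at 63.8, 74.6 and 65.7 CPM, with groups overlapping (-0.07, 95% interval -0.18 to 0.03, adjusted p = 0.278), although it passed without Nop16 siRNA replicate 2, the library in which it was highest (-0.14, edgeR adjusted p = 0.033). The Fnip1 share of the pair per kilobase was 46.6, 46.3 and 44.4% in control libraries and 39, 41.5 and 40.2% after Nop16 siRNA, so it was lower in all 3 Nop16 siRNA libraries, and this ratio within a library does not depend on scaling between libraries.

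The BORC genes had 0 of 3 past the threshold in edgeR, with 1 (Borcs8) at an unadjusted p below 0.05 (0.0379) and 0 in DESeq2 or limma-voom. The share past the edgeR threshold over all genes tested was 45.4%, and nothing is read from a count over 3 genes. Borcs8 was at 17.6, 17.5 and 20.6 CPM in controls and at 19.1, 21.4 and 22.6 CPM after Nop16 siRNA, with groups overlapping (log2 fold change 0.19, 95% interval 0.01 to 0.36, adjusted p = 0.0774). It passed without control replicate 3 (0.27, adjusted p = 0.0208) or without Nop16 siRNA replicate 1 (0.25, adjusted p = 0.0297). Borcs5, the lipid-anchored BORC subunit, had a log2 fold change of 0.17 (95% interval -0.06 to 0.39) and Borcs6 of 0.09 (-0.08 to 0.25). Borcs5 and Borcs6 lay at 10.4 and 20.9 CPM in controls. All 3 intervals include 0.22, the median of the V0 genes.

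**Figure D3:**
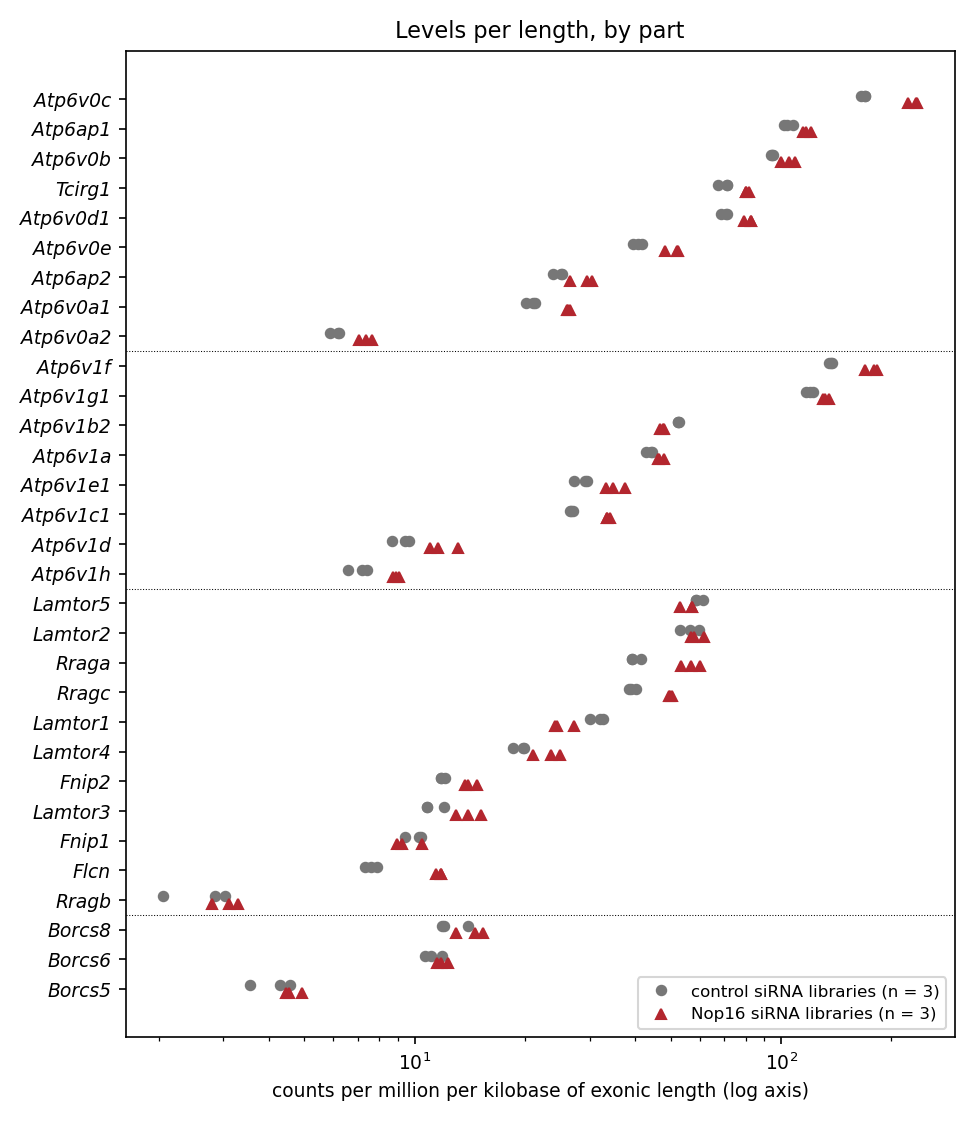
Level of every tested member in each library, as CPM per kilobase of exonic length on a log axis, ordered within each part by the control mean. The length takes in all annotated exons of a gene, so the order depends on the annotation. Atp6v0c, at 168 in controls, is listed highest, with a count that may hold fragments of its pseudogene, and Rragb, at 2.65, the least abundant, and most changes after Nop16 siRNA are small beside the differences between genes.

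Levels between genes were compared per kilobase of exonic length. That length takes in every annotated exon of a gene, so it can exceed the length of the RNA present. Atp6v1h and Lamtor2, for example, had 68.9 and 68.7 CPM in controls but are divided by 9746 and 1218 bases. The order is therefore uncertain beyond the SD between libraries, which does not cover this. In control libraries the order was led by Atp6v0c (168 ± 2.23 CPM per kilobase), Atp6v1f (137 ± 1.72), Atp6v1g1 (120 ± 2.46), Atp6ap1 (104 ± 2.99) and Atp6v0b (94.6 ± 0.624), each apart from the next by more than the spread between libraries. The place of Atp6v0c is uncertain, since its level includes an unknown number of fragments shared with Atp6v0c-ps2 (405 CPM in controls, beside 567 CPM for Atp6v0c). Tcirg1 (70.1 ± 2.3) and Atp6v0d1 (70.1 ± 1.39) followed and did not differ beyond their spread. Of the head subunits, the non-catalytic Atp6v1b2 (52.4 ± 0.137) stood above the catalytic Atp6v1a (43.7 ± 0.922) by more than their spread. Lamtor5 (59.4 ± 1.58) and Lamtor2 (56.4 ± 3.4) led the Ragulator genes and lay within their spread of each other, as did Rraga (40 ± 1.29) and Rragc (39.2 ± 0.831). At the low end stood Atp6v1h (7.07 ± 0.443), Atp6v0a2 (6.08 ± 0.194), Borcs5 (4.13 ± 0.527) and Rragb (2.65 ± 0.516) (SD, n = 3 each). After Nop16 siRNA, Rraga reached 56.7 ± 3.39 and stood above Rragc at 49.8 ± 0.429.

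Other genes of the pathway were taken as lists by function, and each is given by its counts past the same threshold, beside which stand the 23% of all genes tested that were called higher and the 22.4% called lower. Nothing is read from the counts of these short lists. V-ATPase paralogs outside the members were mostly silent. Of 7, only Atp6v0e2 and Atp6v1g2 were tested, and both were higher. Atp6v0e2, a form of the e subunit, rose from 30.8 ± 2.54 to 44.3 ± 3.13 CPM (log2 fold change 0.52, SE 0.068, adjusted p = 2.55e-09). Atp6v1g2, the neuronal G form, was at 2.81 ± 0.738 and 4.01 ± 0.0994 CPM (0.51, edgeR adjusted p = 0.0421), a call lost in DESeq2 (0.0849), without control replicate 3 (log2 fold change 0.31, adjusted p = 0.249) and without any 1 of the Nop16 siRNA libraries (0.0653 to 0.0989). Of 12 tested V-ATPase assembly and regulation genes, 6 were higher and 2 lower, with a median of 0.16. Dmxl2, a subunit of the complex that reassembles V1 with V0, rose from 8.17 ± 0.69 to 11.4 ± 0.811 CPM (0.48), and Rnasek, found in the V0 sector, from 72.5 ± 2.69 to 100 ± 1.97 CPM (0.47). Rnasek shares 67.7% of its exonic length with the read-through model Gm21988 (0.32), so its count is uncertain. The lower genes were Tmem9 (-0.21, adjusted p = 0.00618), whose call was lost without Nop16 siRNA replicate 3 (0.112), and Oxr1 (-0.14, adjusted p = 0.0162), whose call was lost without control replicate 2 (0.0532) or Nop16 siRNA replicate 1 (0.0838).

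Among the MiT-TFE transcription factors, Mitf rose from 40 ± 3.18 to 51.3 ± 3.46 CPM (log2 fold change 0.36, SE 0.0617, adjusted p = 1.49e-06). Tfeb (-0.13, adjusted p = 0.142) and Tfe3 (0.02, adjusted p = 0.855) did not pass, and Tfec was not tested. These are RNA levels, and the activity of these factors is set largely by where the protein sits in the cell, which was not measured. Of 8 further BORC and ARL8 genes, 3 were higher and 2 lower. Plekhm2, which links ARL8 to kinesin, rose (0.34, adjusted p = 2.55e-10). The ARL8 genes moved in opposite directions, with Arl8a from 119 ± 0.447 to 134 ± 5.09 CPM (0.17) and Arl8b from 136 ± 3.37 to 114 ± 5.38 CPM (-0.26).

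**Figure D4:**
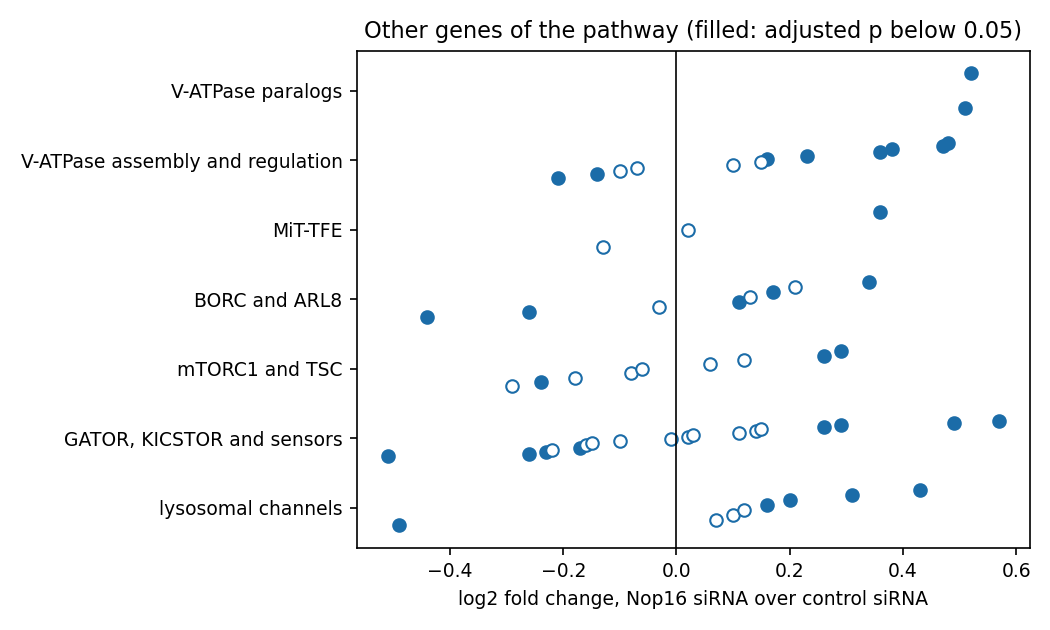
Log2 fold change (x axis, Nop16 siRNA over control siRNA, 3 libraries each) of each tested gene in the 7 other lists of the pathway, filled where the adjusted p was below 0.05. The mTORC1, GATOR and V-ATPase assembly and regulation lists all spread to both sides of 0, with medians of -0.06, 0 and 0.16. Of all genes tested 23% were called higher and 22.4% lower.

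The next lists hold mTORC1 with the TSC complex, which holds back its activator RHEB, and the complexes and sensors upstream of the Rags. Of 9 genes of mTORC1 and its TSC brake, 2 were higher and 1 lower, with a median of -0.06. Rptor, the mTORC1 subunit that binds the Rags, rose from 84.9 ± 4.65 to 102 ± 3.89 CPM (log2 fold change 0.26, adjusted p = 1.4e-06), and the mTORC1 inhibitor gene Akt1s1 rose too (0.29, adjusted p = 0.000328). Deptor, another mTORC1 inhibitor, was lower (-0.24, edgeR adjusted p = 0.0126), a call lost without control replicate 2 (0.097), control replicate 3 (0.0504) or Nop16 siRNA replicate 1 (0.135). Mtor itself did not pass (-0.06, adjusted p = 0.327). Of 18 genes of GATOR, KICSTOR and the amino acid sensors, 4 were higher and 4 lower, with a median of 0, which is near the share called in each direction among all genes tested. Depdc5, in the GATOR1 complex that switches RagA and RagB off, fell from 35.1 ± 2.15 to 24.6 ± 1.07 CPM (-0.51, adjusted p = 3.1e-08), and Sec13 of GATOR2 fell as well (-0.26). The genes of the arginine sensor CASTOR1 and its dimer partner, Castor1 (0.57, from 5.39 ± 0.101 to 8.03 ± 0.625 CPM) and Castor2 (0.49, from 37.6 ± 2.38 to 52.9 ± 2.12 CPM), rose. Of 8 lysosomal channels and exchangers, 4 were higher and 1 lower, with a median of 0.14. Clcn7, the chloride-proton exchanger that works beside the pump, rose from 123 ± 0.907 to 165 ± 3.31 CPM (0.43, adjusted p = 1.17e-15), Tmem175, a lysosomal potassium and proton channel, rose by 0.31, and the 2-pore channel gene Tpcn1 fell from 126 ± 5.46 to 89.8 ± 3.84 CPM (-0.49, adjusted p = 2.01e-15) (SD, n = 3 each).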

How the data were processed

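The deposited tables hold whole-number gene counts without normalization, made with featureCounts 2.0.1 on Ensembl release 101 models of GRCm38, per the file headers. They record paired fragments, strand setting 2, a minimum overlap of 10 bases, and counting of multi-mapped and multi-overlapping fragments. Paralogs, pseudogenes and overlapping genes can thus share counts. HISAT2 2.2.1 and Trim Galore are named in the submitters' processing notes.

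All genes were fitted together in edgeR 4.0.16 (quasi-likelihood, TMM scaling, filterByExpr, robust dispersion; R 4.3.3). Adjusted p is by Benjamini-Hochberg over 14269 genes and passes below 0.05. Positive log2 fold changes are higher after Nop16 siRNA. CPM use TMM-scaled library sizes, and CPM per kilobase divide by the exonic length in the files. That length joins all annotated exons of a gene, so levels and shares per kilobase compared between genes depend on the annotation. On simulated counts for these 14269 genes, this fit found 60% of the genes given a 1.2-fold change, and 96, 100 and 98% of those given 1.5-, 2- and 3-fold changes, and 12 of 189 calls (6.35%) were false. Only 50 genes were changed at each size, all at 5 CPM or more, whereas 6482 genes were called in the data. The adjusted p threshold was thus stricter there, and these shares do not carry over to the data. Chi-square over its degrees of freedom was 2.51 to 3.14 for pairs within a group and 45.1 to 53 for pairs across groups, so no pair was counted as 1 sample.

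The members and lists were chosen with earlier results of these data known. Values in every library are given for, in each part, up to 3 largest called rises and falls, the most abundant gene per kilobase and paralogs, and also for some others. Of other lists, up to 2 called genes in each direction are named, with some others beside them that were chosen after their values were seen. Kics2 matched no gene. The value of 1 lower gene in the list of further BORC and ARL8 genes is not reported here. Copies were sought with BLAST 2.17.0 at 90% identity over 200 bases or more, in GENCODE M21 transcripts. Alternatives were other scalings, filters and dispersion settings, DESeq2 1.42.0, limma-voom (limma 3.58.1), thinning, a block for the replicate number and leaving out each library. Removal of a length and GC trend was added after the data were seen.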

Additional observations from a re-analysis of the deposited data

How the results depend on the processing

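Of 527 member values over 17 alternatives, 521 kept direction and side of the threshold, 3 lost and 3 gained a call, and none reversed. Members called higher were 21 to 22 and lower 2 to 3, with 21 higher without Nop16 siRNA replicate 3 and 3 lower without Nop16 siRNA replicate 2. Lower Ragulator, Rag and FLCN genes were 1 to 2, and higher BORC genes 0 to 1, when a library was left out. In the other lists, higher V-ATPase paralogs were 1 to 2 without a library, and 1 with library size only, DESeq2, no filter, a filter of 5 CPM in 3 libraries, or the length and GC trend removed. Lower assembly and regulation genes were 1 to 2 without a library and 1 with the trend removed. Lower mTORC1 and TSC genes were 0 to 2 without a library, 3 with library size only and 2 with the trend removed, and lower GATOR, KICSTOR and sensor genes were 2 with the trend removed. The cause was not tested. The fitted trend was -0.09 to 0.04 for the members. With a replicate block, 6429 genes were called against 6482, with 22 members higher and 2 lower. Libraries with the same number did not deviate together (correlations 0, -0.01 and -0.02), and none correlated best with its own number, so the numbers were not taken as pairs. Scaling by library size only moved the median of all genes by -0.023. Depth limits what can be said of Atp6v0d2 and Rragd.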

Other observations

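The balance of subunits within a library, a set of values chosen after the fold changes were seen, can be given without any scaling between libraries. Among the 5 Ragulator genes, Lamtor1 held 16.8, 18.5 and 17.9% of the counts per kilobase in control libraries and 15, 13.9 and 13.8% after Nop16 siRNA. Lamtor3 held 6.05, 6.84 and 6.05% and then 7.73, 7.51 and 8.56%, and Lamtor4 held 11, 11.3 and 10.4% and then 13.8, 12.1 and 13.3%. The groups were apart for these 3 genes and overlapped for Lamtor2 (31.6% ± 1.65 and 33.2% ± 1.05) and Lamtor5 (33.4% ± 0.754 and 31.5% ± 1.97; SD, n = 3 each).

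In the V1 head, where A and B subunits alternate in equal number, Atp6v1b2 held 54.2, 54.2 and 55% of the counts per kilobase of the pair in control libraries and 50.9, 50.7 and 49.4% after Nop16 siRNA. These are shares of RNA, and protein was not measured.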
